A study of Arabidopsis thaliana with 12 samples.

Results

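Roots of the erf114 mutant were compared with roots of Col, the reference accession, after treatment with methyl jasmonate (MeJA), a form of the wound hormone jasmonate (JA). Each genotype was represented by 3 RNA sequencing libraries on MeJA, which the titles place at 3 h, and by 3 libraries on the mock medium (MS). Seedlings had germinated for 5 days at 22 °C, and the MeJA dose is 15 µM in the treatment protocol but 50 µM in the design text, so it is not settled. No allele, insertion site or rescued line is given for erf114 in the sources used here, so a difference between the genotypes cannot be told apart from one between the seed stocks. Nothing in the labels tells whether replicates came from separate plates, so the p-values reflect the spread of these libraries alone, and that spread may be technical. Of 23719 genes listed in any of the 12 libraries, 17506 had an FPKM (fragments per unit of gene length and of library depth) of at least 1 in at least 3 of the 6 MeJA libraries and were compared. The third highest of the 6 FPKM values lay between 1 and 1.05 for 105 of these genes, and between 0.95 and 1 for 90 genes left out.

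ERF114 belongs to group X of the ERF transcription factors, together with ERF115 and ERF109, and members of this group are known to be induced by wounding and jasmonate in the root. JA signalling itself runs through the receptor COI1, which has JAZ repressors degraded and so frees MYC factors to act. Ethylene signalling, which acts beside JA in roots, runs from receptors such as ETR2 to the factor EIN3, which the F-box proteins EBF1 and EBF2 remove. Low oxygen is sensed through group VII ERF factors, which the plant cysteine oxidases mark for destruction as long as oxygen is present. In bulk roots, fewer cells of a type and less RNA per cell cannot be told apart.

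ERF114 (AT5G61890, chromosome 5, 24852322 to 24853941 on TAIR10.1) had 59, 50 and 42 estimated counts in the Col MeJA libraries and 13, 13 and 10 in the erf114 MeJA libraries. The groups did not overlap, and 23.8% of the Col level remained in the mutant. The ratio of summed counts per unit of depth, Col over erf114, was 4.20, with a 95% exact interval of 2.90 to 6.21 that covers counting error only. The log2 difference was -1.95 ± 0.38 (SE) and missed the threshold over all genes (edgeR adjusted p = 0.061), while DESeq2 gave an adjusted p = 0.00043. With 3 libraries a side an exact 2-sided permutation test cannot go below 0.1, and p = 0.1 was its value here. ERF114 entered the comparison through the Col libraries alone. On MS the gene was at the limit of detection, with 3 counts over the Col and 2 over the erf114 libraries.

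Depth was even, with 20595909 to 20897031 estimated counts in each MeJA library, and 21209 to 21582 genes were listed in each. The erf114 MeJA libraries differed more among themselves than the Col MeJA libraries, with a median SD of 0.23 against 0.13 (log2 CPM). On MS the median SD was 0.25 in Col and 0.14 in erf114. On the first axis of a principal component analysis of the 6 libraries, which held 51.2% of the variance, erf114 replicate 2 lay at -16.5, within the Col range of -27.3 to -5.2, and the other erf114 libraries lay at 23.5 and 48.2.

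Transcripts of seed storage proteins set the mutant libraries apart. These proteins fill the maturing embryo and are no product of growing roots. Summed over the 6 listed genes they reached 45.6, 44.6 and 82.1 FPKM in the erf114 MeJA libraries, against 1.82, 0.67 and 1.40 FPKM in Col MeJA. The groups did not overlap. On MS the sum was 0.18, 73.2 and 61.1 FPKM in erf114 and 0.15 to 0.88 FPKM in Col, so replicate 1 of erf114 on MS stood with Col. Of the 5 list members tested, none was called with all 12 libraries. All 5 were higher with an unadjusted p under 0.05, against 946 of all 17506 genes (edgeR). Of the 5, 4 had entered the comparison through the erf114 libraries alone. That favours a higher level there, so their calls are no separate support. The cruciferin CRC and the albumin SESA3 had 0 counts in every Col MeJA library and were at least 116-fold and at least 38.0-fold higher in erf114, on a floor of 3 counts per library. The cruciferin CRA1 stood at 0.07, 0.07 and 0.07 FPKM in the Col libraries and 14.14, 8.44 and 18.5 FPKM in the erf114 libraries (log2 difference 7.74 ± 1.52 (edgeR adjusted p = 0.061)). The oleosin OLEO1 had 207 counts over the erf114 and 2 over the Col libraries, a ratio of 104 with a 95% exact interval of 28.3 to 860. With only the 6 MeJA libraries in the edgeR fit 3 of the 5 genes were called, against 39 higher of all 17506 genes. Without erf114 MS replicate 1, an alternative chosen after seeing the data, all 5 were called, against 71 higher of all genes. DESeq2 also called all 5, against 192 higher of all genes. What this seed RNA has to do with the other differences was not tested. In the shoot photosynthesis list, the other marker of tissue outside the root, the sums overlapped, at 260, 264 and 548 FPKM in Col MeJA and 514, 200 and 618 FPKM in erf114 MeJA.

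**Figure D1:**
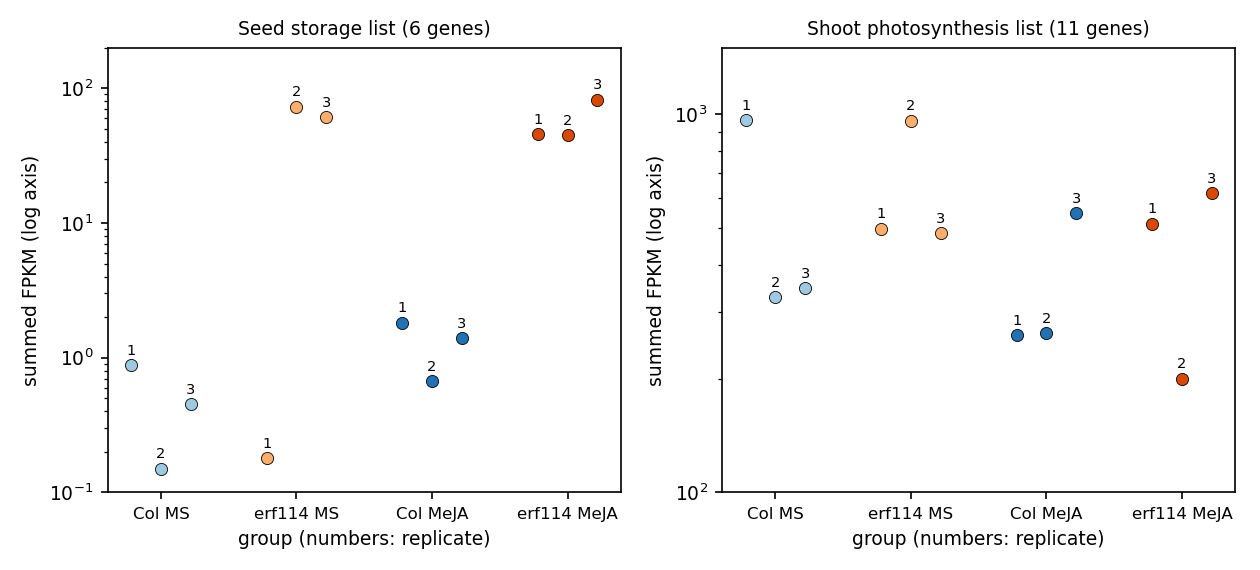
Summed FPKM (log axis) of the seed storage list and the shoot photosynthesis list in each of the 12 libraries, by group, with the replicate number at each point. The seed sum is 44.6 to 82.1 in erf114 MeJA and at most 1.82 in Col MeJA, and erf114 MS replicate 1 is at 0.18; the shoot sums of the genotypes overlap.

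In the whole comparison 70 of 17506 genes differed between erf114 and Col on MeJA (0.4%, edgeR quasi-likelihood test, Benjamini-Hochberg adjusted p under 0.05). Of these, 60 were higher in erf114 (0.343% of all tested) and 10 were lower (0.0571%). A change of at least 2-fold was seen in 38 of the higher and 6 of the lower genes, and 1494 genes had an unadjusted p under 0.05, 946 higher and 548 lower. All 70 had no overlap of FPKM between the groups, which held for 17.6% of all genes (4.44% higher and 13.1% lower). On MS, tested for the same genes, 6 differed (0.0343%), 2 higher (0.0114%) and 4 lower (0.0228%), with 659 at an unadjusted p under 0.05. The Col MS libraries varied most among themselves (median SD 0.25, log2 CPM), and what that did to the MS count was not tested. The 2 contrasts share no library. Of the genes called, 5 were called on both media, which is 7.14% of the MeJA calls and 83.3% of the MS calls; with the replicate number as a block 4 were called on MS, all of them also on MeJA. Of the 60 genes higher on MeJA, 40 also had a positive log2 difference on MS, with a median of 0.17, and 9 of the 10 lower genes had a negative one. The MeJA count depended on single libraries. It was 41, 20 and 19 without Col MeJA replicate 1, 2 or 3, and 35, 79 and 42 without erf114 MeJA replicate 1, 2 or 3. In each of these 6 fits the same 16 genes were called, 11 higher and 5 lower. DESeq2 called 231 genes, 192 higher (1.1% of all tested) and 39 lower (0.223%), among them all 70, and edgeR with only the 6 MeJA libraries called 39 higher (0.223%) and 9 lower, 33 of these 48 among the 70.

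The MS libraries place the 60 higher genes (TMM-scaled CPM). These genes were chosen for erf114 above Col on MeJA, which favours such placements, and no share over all genes was computed. In 34 of them all 3 erf114 MeJA libraries lay above all 6 MS libraries, and in 9 of these the Col MeJA libraries did so too. In 24 all 3 Col MeJA libraries lay below all 6 MS libraries. For 3 genes the mutant lay above and Col below, and 5 genes had neither placement. Calls lay on every chromosome (10, 14, 17, 10 and 19 on chromosomes 1 to 5, or 0.22%, 0.527%, 0.487%, 0.377% and 0.458% of the genes tested there). None of the 399 genes tested within 1 Mb of ERF114 was called, against 0.4% of all genes. At so small a share, the absence of calls among 399 genes says little about the region.

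**Figure D2:**
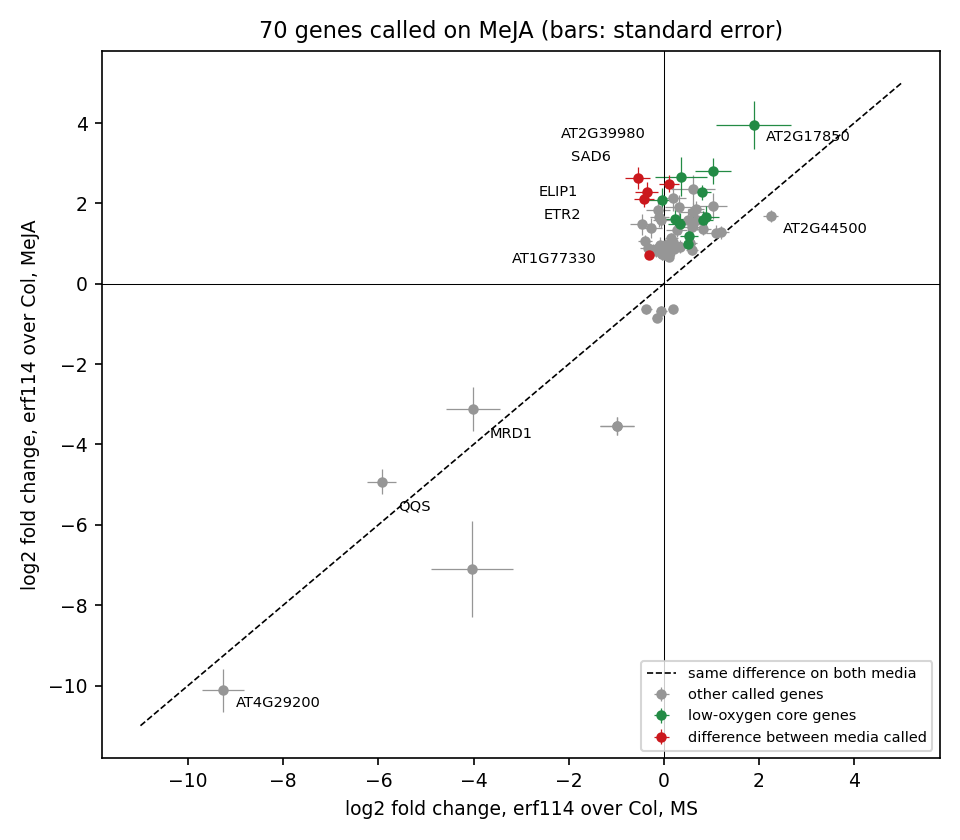
Log2 fold change of erf114 over Col on MS (horizontal) and on MeJA (vertical) for the 70 genes called on MeJA, with bars of 1 standard error and a dashed line of equal difference. AT4G29200, QQS and MRD1 lie near the line, with large falls on both media; SAD6, ELIP1, ETR2, AT2G39980 and AT1G77330, in red, are higher on MeJA and near 0 or below on MS.

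In 5 genes the genotype difference itself differed between MeJA and MS (0.0286% of genes, edgeR interaction, adjusted p = 0.022 for each), and all 5 were higher in erf114 on MeJA. SAD6 (AT1G43800, chromosome 1, 16577521 to 16579722), an acyl carrier protein desaturase of the chloroplast, stood at 7.65, 5.8 and 5.68 FPKM in the Col libraries and 38.8, 31.02 and 38.41 FPKM in the erf114 libraries on MeJA. The groups did not overlap, and the log2 difference was 2.63 ± 0.27 (edgeR adjusted p = 0.0011), against -0.55 on MS. The ethylene receptor gene ETR2 (AT3G23150, chromosome 3, 8254559 to 8257888) stood at 4.15, 4.62 and 3.55 FPKM in the Col libraries and 15.35, 13.75 and 19.44 FPKM in the erf114 libraries on MeJA. Col MeJA lay below every MS library (4.41 to 8.36 FPKM) except that Col MeJA replicate 2, at 4.62, exceeded the lowest of them, and erf114 MeJA lay above all of them. Its difference was 2.12 ± 0.22 (edgeR adjusted p = 0.0011) on MeJA and -0.42 on MS.

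ELIP1 (AT3G22840, chromosome 3, 8084405 to 8085669), an early light-induced chlorophyll-binding protein, stood at 16.7, 15.73 and 16.04 FPKM in the Col libraries and 85.16, 56.39 and 72.7 FPKM in the erf114 libraries on MeJA and at 10.7 to 17.4 FPKM in the 6 MS libraries. Only the mutant on MeJA was high, and the difference was 2.29 ± 0.25 (edgeR adjusted p = 0.0015). AT2G39980 (chromosome 2, 16687673 to 16690182) stood at 1.6, 1.33 and 1.45 FPKM in the Col libraries and 7.77, 6.59 and 8.21 FPKM in the erf114 libraries (log2 difference 2.49 ± 0.22 (edgeR adjusted p = 0.00024)). AT1G77330 (chromosome 1, 29062945 to 29064637), listed in the reference as the ACC oxidase ACO5, an enzyme of the last step of ethylene synthesis, stood at 111.14, 122.45 and 122.36 FPKM in the Col libraries and 190.51, 179.9 and 165.71 FPKM in the erf114 libraries (log2 difference 0.72 ± 0.09 (edgeR adjusted p = 0.0059)). Col was the group that stood apart here: its MeJA libraries lay below all 6 MS libraries (155 to 193 FPKM), while erf114 MeJA lay within their range. All 5 calls of a difference between media were lost without Col MeJA replicate 1, 2 or 3, without erf114 MeJA replicate 1, and, chosen after seeing the data, without erf114 MS replicate 1. There was 1 call without erf114 MeJA replicate 3, and there were 8 without replicate 2, while DESeq2 made 43.

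The 250 bases before the annotated start of each of these 5 genes are shown because their genotype difference was tied to the medium; none overlaps an annotated exon. They are from RefSeq, read 5′ to 3′ on the gene's strand. Capitals mark GCCGCC (the GCC box that ERF factors bind), GCCGAC or CACGTG (the G box that MYC and other factors bind) on either strand. The 1 match was CACGTG in ELIP1, whose first base is 66 bases before the gene start.
SAD6 (TAIR10.1, chr1:16577271-16577520, plus strand): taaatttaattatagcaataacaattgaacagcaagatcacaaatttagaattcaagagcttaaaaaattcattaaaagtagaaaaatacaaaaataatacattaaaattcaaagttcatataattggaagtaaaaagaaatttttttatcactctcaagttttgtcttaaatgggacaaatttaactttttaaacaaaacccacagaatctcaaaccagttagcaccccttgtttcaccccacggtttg
ETR2 (TAIR10.1, chr3:8254309-8254558, plus strand): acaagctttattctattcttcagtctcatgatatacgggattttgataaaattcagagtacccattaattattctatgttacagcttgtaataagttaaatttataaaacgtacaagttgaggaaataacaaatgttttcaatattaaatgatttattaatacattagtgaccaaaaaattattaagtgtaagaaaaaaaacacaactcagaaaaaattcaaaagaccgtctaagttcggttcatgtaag
ELIP1 (TAIR10.1, chr3:8085670-8085919, minus strand): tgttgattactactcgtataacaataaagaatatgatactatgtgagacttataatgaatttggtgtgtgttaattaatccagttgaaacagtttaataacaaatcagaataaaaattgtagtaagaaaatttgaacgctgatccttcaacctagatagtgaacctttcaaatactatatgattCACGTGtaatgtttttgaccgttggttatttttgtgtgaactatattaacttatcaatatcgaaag
AT2G39980 (TAIR10.1, chr2:16690183-16690432, minus strand): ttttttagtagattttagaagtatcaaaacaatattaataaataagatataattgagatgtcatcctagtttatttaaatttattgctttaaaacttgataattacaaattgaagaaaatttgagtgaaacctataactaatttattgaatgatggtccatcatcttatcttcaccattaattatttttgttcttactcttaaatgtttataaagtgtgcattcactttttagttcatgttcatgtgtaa
AT1G77330 (TAIR10.1, chr1:29064638-29064887, minus strand): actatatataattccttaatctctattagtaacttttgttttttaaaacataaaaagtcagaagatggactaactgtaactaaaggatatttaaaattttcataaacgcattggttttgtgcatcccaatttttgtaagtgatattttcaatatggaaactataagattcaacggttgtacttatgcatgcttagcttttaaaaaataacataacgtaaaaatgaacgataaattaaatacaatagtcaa
Over all 17452 tested genes with such a stretch, GCCGCC was in 1.96%, GCCGAC in 2.96% and CACGTG in 7.48%. Among 59 genes called higher the counts were 3 (5.08%), 2 (3.39%) and 6 (10.2%), and among the 10 called lower they were 0 for each. These are descriptions of letters in a window, not of binding.

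Of the genes lower in erf114 on MeJA, AT4G29200, QQS and MRD1 were also called lower on MS. AT4G29200 (chromosome 4, 14398054 to 14400198) stood at 23.29, 28.85 and 20.57 FPKM in Col MeJA and at 0, 0.04 and 0 FPKM in erf114 MeJA. It had 1618 counts over the Col and 1 over the erf114 libraries, a ratio of 1618 with a 95% exact interval of 290 to 63950. QQS (AT3G30720, chromosome 3, 12349047 to 12349933), an orphan gene known to affect leaf starch, stood at 12.49, 18.06 and 12.45 FPKM in the Col libraries and 0.49, 0.41 and 0.4 FPKM in the erf114 libraries (log2 difference -4.93 ± 0.31 (edgeR adjusted p = 1e-05)). MRD1 (AT1G53480) stood at 64.57, 67.8 and 68.87 FPKM in the Col libraries and 5.65, 7.45 and 7.98 FPKM in the erf114 libraries (log2 difference -3.12 ± 0.55 (edgeR adjusted p = 0.036)). Their log2 differences on MS were -9.27, -5.93 and -4.02, and with the replicate number as a block MRD1 was not called there (edgeR adjusted p = 0.088). In erf114 MS replicate 1, where the seed sum was 0.18 FPKM, they stood at 0, 0.38 and 0.86 FPKM, against 29.4 or more, 22.3 or more and 94.5 or more FPKM in Col MS. In erf114 MS replicates 2 and 3 AT4G29200 stood at 0.14 and 0.04 FPKM, QQS at 0.27 and 0.52 FPKM and MRD1 at 12.7 and 7.67 FPKM. What the seed signal has to do with these levels was not tested. On MeJA, MRD1 was called in 0 of the 6 fits that left out 1 MeJA library. AT1G27565 had 50 counts over the Col MeJA libraries and 0 in each erf114 MeJA library, at least 5.55-fold lower in the mutant on a floor of 3 counts per library. On MS it stood at 2.73, 3.83 and 1.37 FPKM in Col and 0, 0 and 0.43 FPKM in erf114. It was not called there (log2 difference -4.02, edgeR adjusted p = 0.77), and on MeJA it was called in 0 of the 6 fits that left out 1 MeJA library. AT4G29200, AT1G27565 and QQS entered the comparison through the Col libraries alone.

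AT14A (AT3G28290) and its neighbour AT3G28300 carried identical values in every library, so their reads may have been divided between the copies, and what each contributed is uncertain. The counts of called genes hold both; with the pair taken as 1 locus, 69 were called and 9 of them lower. It stood at 16.03, 19.35 and 20.24 FPKM in the Col libraries and 1.24, 1.66 and 1.45 FPKM in the erf114 libraries, a log2 difference of -3.54 ± 0.22 (edgeR adjusted p = 1e-05), but on MS both genotypes were at 0.23 to 0.56 FPKM. The remaining falls were smaller. AAE17, an acyl-activating enzyme, differed by -0.85 ± 0.11 (edgeR adjusted p = 0.0051), AT5G24870 by -0.67 and AT1G30820 by -0.64. CASP5, a protein of the Casparian strip of the endodermis, stood at 16.1, 18.5 and 18.74 FPKM in the Col libraries and 9.72, 11.87 and 9.62 FPKM in the erf114 libraries (log2 difference -0.64 ± 0.12 (edgeR adjusted p = 0.049)). It was the only one of 6 endodermis markers called (16.7%, against 0.0571% lower among all genes), and the median of that list was 0.06. It was called in 0 of the 6 fits that left out 1 MeJA library, and not with only these 6 libraries.

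**Figure D3:**
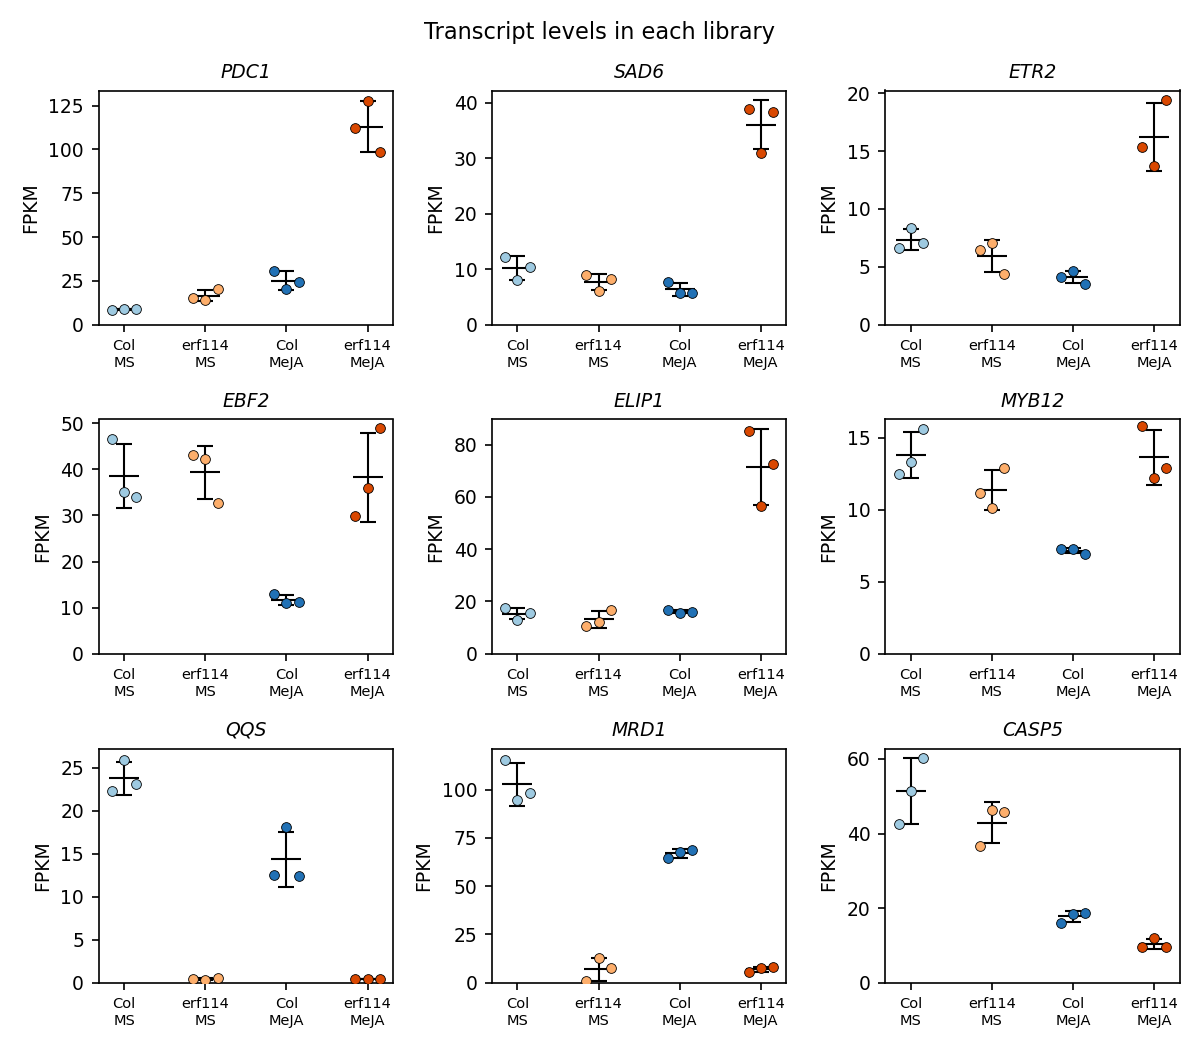
FPKM of 9 named genes in each of the 12 libraries by group, with the mean and SD (n = 3). PDC1, SAD6 and ELIP1 are highest in erf114 on MeJA; EBF2 and MYB12 are lowest in Col on MeJA, with erf114 near the MS levels; QQS and MRD1 are low in erf114 on both media.

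Genes of the low-oxygen response held the largest number of calls among the 36 lists, though not the largest share (28.3%, against 33.3% of 6 flavonoid genes and 30.0% of 10 light-response genes). Of 46 core genes, which plants switch on under low oxygen in roots and shoots alike, 13 were called higher in erf114 on MeJA and none lower, against 0.343% higher among all genes. The difference was positive in 45 of 46, with a median log2 of 0.96 against 0.01 over all genes, and the median of the same genes on MS was 0.25. In 26 of them the erf114 libraries lay above all Col libraries, against 4.44% of all genes (FPKM). The 32 members with an unadjusted p under 0.05 included these 13. With median-of-ratios scaling, with DESeq2 and on both log2 FPKM scales 45 of 46 were positive too. The lists and their members were chosen with earlier results of these data known. That choice favours high shares here and in the lists below, so the shares are no separate support. The called genes PCO1, PCO2, ETR2 and ACO1 are counted again in the oxygen sensing or ethylene lists.

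PDC1 (AT4G33070, chromosome 4, 15952257 to 15954803), a pyruvate decarboxylase of ethanolic fermentation, stood at 30.74, 20.45 and 24.37 FPKM in the Col libraries and 112.36, 127.63 and 98.7 FPKM in the erf114 libraries. The groups did not overlap, and the log2 difference was 2.27 ± 0.19 (edgeR adjusted p = 0.00022). On MS it differed by 0.80 and was not called, with 8.6, 8.83 and 8.9 FPKM in Col and 15.53, 13.97 and 20.34 FPKM in erf114. The groups did not overlap on MS either. ADH1, the alcohol dehydrogenase that follows PDC1, varied between libraries, at 144.07, 60.79 and 111.18 FPKM in the Col libraries and 194.44, 371.78 and 153.21 FPKM in the erf114 libraries, and was not called (1.26 ± 0.35 (edgeR adjusted p = 0.26)). The lactate dehydrogenase LDH differed by 0.94 ± 0.19 (edgeR adjusted p = 0.062) and PDC2 by 0.87 ± 0.19 (edgeR adjusted p = 0.09).

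SUS4, a sucrose synthase that feeds glycolysis, stood at 10.35, 5.5 and 8.85 FPKM in the Col libraries and 20.22, 33.71 and 17.21 FPKM in the erf114 libraries (log2 difference 1.61 ± 0.25 (edgeR adjusted p = 0.015)). HB1, a haemoglobin that removes nitric oxide, stood at 33.83, 18.18 and 24.54 FPKM in the Col libraries and 73.17, 80.65 and 58.38 FPKM in the erf114 libraries (log2 difference 1.58 ± 0.22 (edgeR adjusted p = 0.0083)). NIP2;1, a channel protein of the aquaporin family, stood at 3.67, 1.33 and 2.37 FPKM in the Col libraries and 17.6, 19.49 and 11.06 FPKM in the erf114 libraries (log2 difference 2.81 ± 0.33 (edgeR adjusted p = 0.0026)). In all 3 genes every erf114 library was above every Col library, on MS as on MeJA. On MS SUS4, HB1 and NIP2;1 differed by 0.24, 0.82 and 1.03, and none was called there. PCO1 and PCO2, the oxygen-sensing cysteine oxidases, rose by 1.66 ± 0.28 and 2.08 ± 0.30 (edgeR adjusted p = 0.026 and 0.011). On MS they differed by 0.88 and -0.04, neither called. The other members called were ETR2, SAD6, ACO1 (1.00), AT2G17850 (3.96, which entered through the erf114 libraries alone), AT4G33560 (2.67), AT3G27220 (1.49) and AT4G27450 (1.20).

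Of 11 genes of oxygen sensing only PCO1 and PCO2 were called (18.2%, against 0.343% higher among all genes), and neither was called without Col MeJA replicate 1, 2 or 3 or with only the 6 MeJA libraries. The group VII factors RAP2.2 and RAP2.12 were not, nor were RAP2.3, HRE1 and HRE2, with log2 differences of 0.84, 0.89 and 1.70. Some members were high in 1 mutant library. LBD41, a transcription factor of the low-oxygen response, stood at 38.33, 16.77 and 20.42 FPKM in the Col libraries and 222.57, 32.21 and 51.5 FPKM in the erf114 libraries (log2 difference 2.14 ± 0.85 (edgeR adjusted p = 0.51)), and HRA1, a repressor of the same response, at 3.38, 1.42 and 2.19 FPKM in the Col libraries and 24.17, 3.82 and 3.29 FPKM in the erf114 libraries. In both, erf114 replicate 1 exceeded the other mutant libraries several times over. The number of core genes called was 8, 5 and 4 without Col MeJA replicate 1, 2 or 3, at most 14 without a mutant library, and 7 with only the 6 MeJA libraries. PDC1, SAD6, ETR2 and NIP2;1 were called in each of the 6 fits that left out 1 library.

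**Figure D4:**
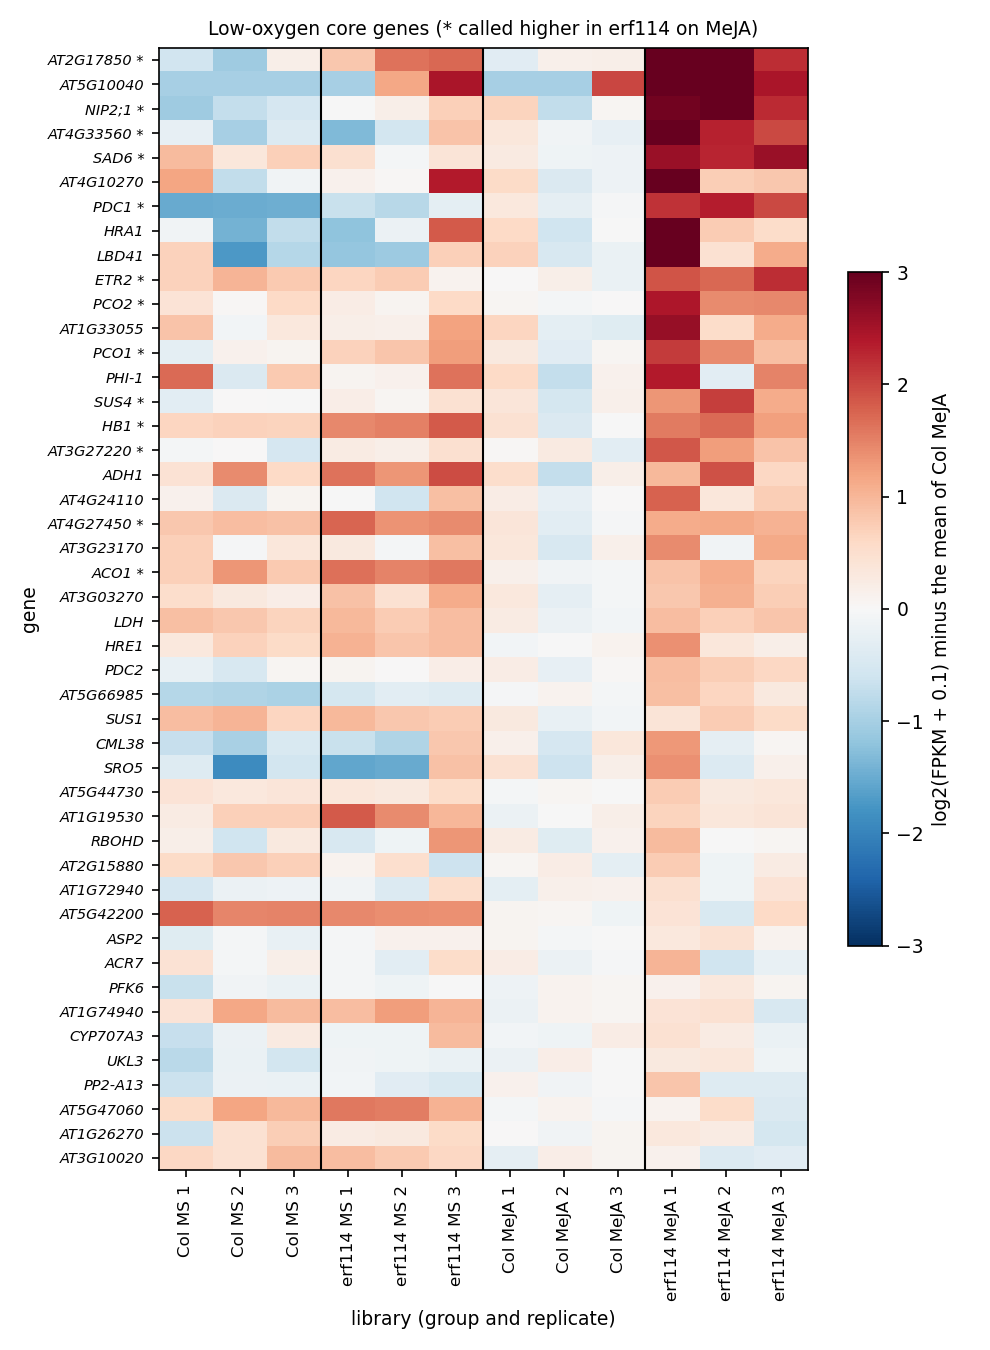
Log2(FPKM + 0.1) of the 46 low-oxygen core genes in each of the 12 libraries, relative to the mean of Col MeJA, sorted by the difference on MeJA, with an asterisk for the 13 called. The upper genes are high in all 3 erf114 MeJA libraries, while AT4G10270, HRA1 and LBD41 are highest in replicate 1.

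In ethylene signalling 2 of 11 genes were called higher (18.2%, against 0.343% of all genes) and none lower, with a list median of 0.34 against 0.01 over all genes. Besides ETR2 this was EBF2, the F-box gene that EIN3 itself induces, at 12.95, 11.02 and 11.2 FPKM in the Col libraries and 29.98, 35.84 and 48.89 FPKM in the erf114 libraries (log2 difference 1.84 ± 0.27 (edgeR adjusted p = 0.01)). On MS both genotypes held 32.6 to 46.5 FPKM of EBF2, so Col MeJA lay below all MS libraries and erf114 MeJA lay around them. EBF1 (0.70), CTR1 (0.34), the receptor ETR1 and the central factors EIN2 and EIN3 were not called. Of 6 listed genes of ethylene synthesis tested, ACO1 was called (16.7%, against 0.343% higher among all genes). It stood at 9.87, 8.13 and 8.49 FPKM in the Col libraries and 16.04, 19.12 and 13.95 FPKM in the erf114 libraries (log2 difference 1.00 ± 0.14 (edgeR adjusted p = 0.01)), and ACS7 stood at 1.33 ± 0.49 (edgeR adjusted p = 0.47). The ACC oxidase gene AT1G77330, outside this list, was called too (0.72 ± 0.09 (edgeR adjusted p = 0.0059)). ARGOS, known to lower ethylene sensitivity, was named here after its values were seen and tested through the erf114 libraries alone. It differed by 1.85 ± 0.21 (edgeR adjusted p = 0.0022), at 0.773 ± 0.12 FPKM in Col MeJA and 2.55 ± 0.061 FPKM in erf114 MeJA (SD, n = 3). On MS its means were higher than these, at 3.12 FPKM in Col and 5.37 FPKM in erf114. EBF2 lost its call without Col MeJA replicate 2 or 3.

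Light-response genes rose in part. Of 10 tested genes of light signalling, B-box factors and ELIPs, 3 were called higher (30.0%, against 0.343% of all genes) and none lower, with a median of 0.52. Besides ELIP1 these were ELIP2, at 3.23, 2.77 and 2.96 FPKM in the Col libraries and 14.21, 8.63 and 7.96 FPKM in the erf114 libraries (log2 difference 1.92 ± 0.28 (edgeR adjusted p = 0.011)), and BBX24, a B-box repressor of light responses, at 63.81, 59.88 and 58.6 FPKM in the Col libraries and 114.53, 104.53 and 105.43 FPKM in the erf114 libraries (log2 difference 0.96 ± 0.12 (edgeR adjusted p = 0.005)). HY5, the main activator of light responses, was not called (0.48 ± 0.17 (edgeR adjusted p = 0.44)). All 10 differences were positive in the scaled count fits over 12 libraries, and 9 of 10 on the log2 FPKM scale. The B-box genes STH (1.35) and BBX28 (1.48), outside the list and named after their values were seen, were also called. None of the 11 shoot photosynthesis genes was called, all 11 were positive with a median of 0.52 (9 of 11 on the log2 FPKM scale), and their part in the rise of light-response genes was not tested. The number called in the light list was 1 without Col MeJA replicate 3.

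In flavonoid synthesis 2 of 6 tested genes were called higher (33.3%, against 0.343% of all genes) and none lower, with a median of 0.87, and all 6 had a positive difference and an unadjusted p under 0.05. MYB12, the activator of flavonol synthesis in roots, stood at 7.28, 7.3 and 6.94 FPKM in the Col libraries and 15.83, 12.24 and 12.88 FPKM in the erf114 libraries (log2 difference 1.06 ± 0.16 (edgeR adjusted p = 0.011)), and on MS at 10.1 to 15.6 FPKM over both genotypes. Col MeJA was thus the low group. CHI, the chalcone isomerase, stood at 43.46, 42.09 and 41.5 FPKM in the Col libraries and 76.82, 79.12 and 54.58 FPKM in the erf114 libraries (log2 difference 0.85 ± 0.13 (edgeR adjusted p = 0.012)). CHS, the entry enzyme, reached 423 ± 43 FPKM in Col and 712 ± 78 FPKM in erf114 (SD, n = 3), with no overlap, and was not called (0.89 ± 0.23 (edgeR adjusted p = 0.2)). UGT78D2, a flavonoid glucosyltransferase outside the list and named after its value was seen, was called (0.96). No listed flavonoid gene was called without Col MeJA replicate 2 or 3 or without erf114 MeJA replicate 1.

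In the JA pathway itself no gene passed the edgeR test with all 12 libraries. None was called of 13 JAZ repressors (median log2 difference 0.05), 14 JA biosynthesis genes (0.14), 9 JA catabolism genes (0.06), 10 genes of the receptor and MYC/JAM factors (-0.12), 4 MYC-branch wound markers (0.45) or 5 ERF-branch defence genes (0.54). Of these 55 genes 6 had an unadjusted p under 0.05, against 1494 of all 17506 genes (edgeR). Limma on log2(FPKM + 1) called none, against 81 of all genes. DESeq2 and edgeR with only the 6 MeJA libraries each called 1, against 231 and 48 of all genes. This was CYP94B1, a hydroxylase that inactivates the active JA conjugate, at 129.89, 120.02 and 130.15 FPKM in the Col libraries and 223.45, 238.27 and 179.83 FPKM in the erf114 libraries. The groups did not overlap, and the log2 difference was 0.87 ± 0.20 (edgeR adjusted p = 0.12 with all 12 libraries and 0.033 with the 6 MeJA libraries; DESeq2 adjusted p = 0.0048). VSP2, a vegetative storage protein and JA marker, stood at 205.86, 248.86 and 245.79 FPKM in the Col libraries and 279.63, 256.17 and 282.77 FPKM in the erf114 libraries (0.37 ± 0.15 (edgeR adjusted p = 0.52)). JAZ8 (AT1G30135), a repressor in the title of the series, was at 55.02, 25.84 and 45.98 FPKM in the Col libraries and 98.32, 31.8 and 55.73 FPKM in the erf114 libraries, where the groups overlapped (0.70 ± 0.79 (edgeR adjusted p = 0.79); exact 2-sided permutation p = 0.4). In the same library, erf114 MeJA replicate 1, ERF109 was also highest, at 69.83, 37.28 and 85.12 FPKM in the Col libraries and 140.43, 44.83 and 69.47 FPKM in the erf114 libraries (0.55 ± 0.75 (edgeR adjusted p = 0.82); exact 2-sided permutation p = 0.7). For ERF115 no library held over 3 counts, and it was not compared.

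Among the 6 tested members of ERF group X, RAP2.6L was called (16.7%, against 0.343% higher among all genes), at 24.39, 26.11 and 28.03 FPKM in the Col libraries and 43.25, 36.66 and 39.36 FPKM in the erf114 libraries (log2 difference 0.74 ± 0.14 (edgeR adjusted p = 0.044)). It was not called with only the 6 MeJA libraries (edgeR adjusted p = 0.08), and of the 6 fits that left out 1 MeJA library only that without erf114 replicate 2 called it. Its relatives RAP2.6 and ABR1 stood at 1.00 ± 0.23 (edgeR adjusted p = 0.12) and 0.99 ± 0.29 (edgeR adjusted p = 0.3). RAP2.6 was called by DESeq2 (adjusted p = 0.0053) and in the replicate block fit of the 6 MeJA libraries (edgeR adjusted p = 0.04), and ABR1 in no fit. For RAP2.6 all 3 mutant libraries (132 to 222 FPKM) exceeded all Col libraries (85.3 to 109 FPKM). The list median was 0.64, and ERF114 was the only negative member with all 12 libraries scaled by TMM or median of ratios. On the log2(FPKM + 1) scale the median was 0.45 and ERF112, at 0.02 in the count fit, was negative too (-0.13).

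**Figure D5:**
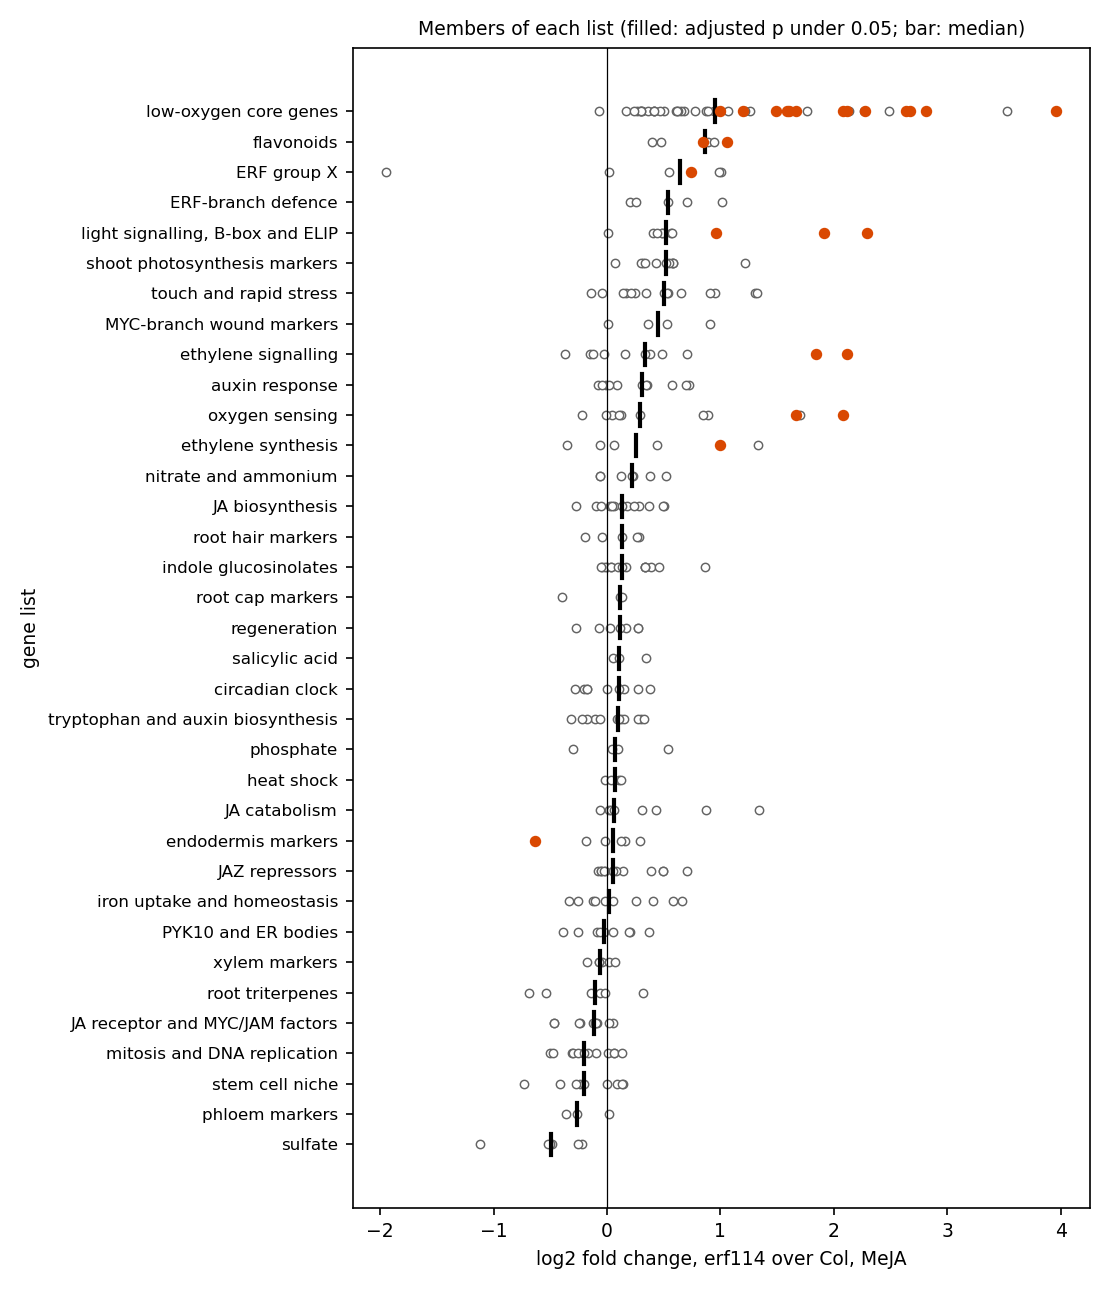
Log2 fold change of erf114 over Col on MeJA for the tested members of 35 gene lists, filled where called, with the list median as a bar; the seed storage list, with a median of 7.74, is not drawn. Low-oxygen core genes hold 13 filled points and a median of 0.96, and no JAZ, JA biosynthesis or JA catabolism gene is filled.

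Growth and other root functions showed few calls. No gene was called in the lists of tryptophan and auxin biosynthesis (12 tested, median 0.10), auxin response (11, 0.31), regeneration (7, 0.11), mitosis and DNA replication (13, -0.20), stem cell niche (9, -0.20), indole glucosinolates (16, 0.13), PYK10 and ER bodies (9, -0.03), root triterpenes (6, -0.11), touch and rapid stress (15, 0.50), heat shock (4, 0.07), iron (10, 0.02), nitrate and ammonium (7, 0.22), phosphate (4, 0.07), salicylic acid (3, 0.10) or the circadian clock (11, 0.10). In sulfate assimilation all 6 tested genes had a negative difference under every scaling tried, with a median of -0.49 and none called; without erf114 MeJA replicate 2 SDI1 was called (-2.13). APR1, a reductase of that pathway, stood at 198.83, 223.97 and 243.2 FPKM in the Col libraries and 126.15, 176.02 and 135.7 FPKM in the erf114 libraries (-0.48 ± 0.11 (edgeR adjusted p = 0.13)). Root hair (5 tested, median 0.13), root cap (3, 0.11), xylem (6, -0.06) and phloem markers (3, -0.26) held no call. Over these lists and the shoot list, 171 genes in all, 26 had an unadjusted p under 0.05, against 1494 of all 17506 genes (edgeR). Limma on log2(FPKM + 1) called none. DESeq2 called 2 higher, against 1.1% of all genes, and 2 lower, against 0.223%. The higher ones were the indole glucosinolate genes CYP81F4 and CYP81F1 (DESeq2 adjusted p = 1.6e-06 and 0.0039). The lower ones were the sulfate genes APR3 and APR1 (DESeq2 adjusted p = 0.00093 and 0.0044). On the unscaled log2 FPKM scale the median of all genes was -0.11, and small list medians shift with it.

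Among further called genes AT2G44500 was higher on both media, at 54.27, 63.72 and 63.13 FPKM in the Col libraries and 198.4, 209.54 and 130.03 FPKM in the erf114 libraries on MeJA (log2 difference 1.68 ± 0.15 (edgeR adjusted p = 0.00038)) and by 2.25 on MS. It was high in erf114 MS replicate 1, at 203 FPKM, as in the other 2 mutant MS libraries. NAS2, KAI2 and IAA28 were picked after their values were seen. NAS2, a nicotianamine synthase of metal transport, was higher in erf114 by 1.28 ± 0.17 (edgeR adjusted p = 0.0064) and differed by 1.21 on MS, where it was not called with the replicate number as a block (edgeR adjusted p = 0.083). The karrikin receptor KAI2 differed by 0.85 ± 0.15 (edgeR adjusted p = 0.041) and the auxin repressor IAA28 by 0.71 ± 0.13 (edgeR adjusted p = 0.048). Each was called in 1 of the 6 fits that left out 1 MeJA library. Col MeJA was the low group in both. Mean KAI2 was 22.7 FPKM there, 37.2 in erf114 MeJA, 43.9 in Col MS and 41.0 in erf114 MS. Mean IAA28 was 53.9, 81.8, 76.5 and 84.2 FPKM in the same order. SADHU5-1, annotated as a non-coding retrotransposon, stood at 12.14, 11.27 and 10.18 FPKM in the Col libraries and 34.9, 30.94 and 49.64 FPKM in the erf114 libraries (1.94 ± 0.32 (edgeR adjusted p = 0.021)). AT2G16890 rose by 1.78 ± 0.23 (edgeR adjusted p = 0.0059) from 1.84 ± 0.44 to 5.85 ± 1.2 FPKM (SD, n = 3).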

How the data were processed

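Root RNA was sequenced from 12 libraries in 4 groups of 3, grouped by their titles. The authors deposited, per the file headers, an estimated read count, a TPM and an FPKM for each gene and library; aligner, counter and build: not given in the sources used here. Deposited expected counts (1.542 to 1.718% of values fractional) were rounded to whole numbers and tested; deposited FPKM values served for levels, the filter and alternatives; deposited TPM values were only range-checked. A gene not listed in a library was set to 0. All 23719 gene identifiers matched TAIR10.1, the source of symbols and coordinates; the files hold no coordinates.

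R 4.3.3 and edgeR 4.0.16 were used, with TMM scaling, 4 group means over all 12 libraries, 8 residual degrees of freedom, the quasi-likelihood test and Benjamini-Hochberg adjustment over 17506 genes at 0.05. The biological coefficient of variation was 17.8%, which with 3 libraries a group limits small differences. SE is the size of a log2 difference divided by the root of F. The script was tested on simulated data. Replicate numbers carry no stated meaning in the labels; on MS all 3 same-numbered pairs of Col and erf114 deviated together (correlations of 0.23, 0.209 and 0.301, over 0.1), and on MeJA they did not. Replicate pairs differed beyond sampling noise (chi-square per gene of 7.52 or more). It was 65.7 and 52.8 for Col MS replicate 1 against replicates 2 and 3, and 8.72 between replicates 2 and 3. DESeq2 1.42.0, limma 3.58.1, other filters and scalings, the replicate number as a block and leaving out each MeJA library were alternatives; leaving out erf114 MS replicate 1 was added after seeing the data.

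Named genes are the 15 largest rises and 15 largest falls among called genes whose groups did not overlap and whose higher group averaged 5 FPKM or more (9 falls qualified), plus ERF114, ERF109, ERF115, JAZ8 and genes from 36 lists of 365 genes, of which 328 were tested. The members and lists were chosen with earlier results of these data known. The medians and counts describe the lists and no list test was run.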

Additional observations from a re-analysis of the deposited data

Results flagged for a closer look

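The genotype difference of 5 genes differed between MeJA and MS in a test of the difference itself (edgeR interaction, log2 scale, SE after ±, adjusted p = 0.022 for each). SAD6 differed by 3.18 ± 0.38, from -0.55 on MS to 2.63 on MeJA. ELIP1 differed by 2.65 ± 0.35, from -0.36 on MS to 2.29 on MeJA. ETR2 differed by 2.54 ± 0.30, from -0.42 on MS to 2.12 on MeJA. AT2G39980 differed by 2.39 ± 0.30, from 0.11 on MS to 2.49 on MeJA. AT1G77330 differed by 1.03 ± 0.13, from -0.31 on MS to 0.72 on MeJA. In all 5 the 3 erf114 libraries lay above the 3 Col libraries on MeJA. Of the 70 genes called on MeJA, 59 had an unadjusted interaction p under 0.05, against 1060 of all 17506 genes (edgeR). The interaction holds the MeJA contrast by which the 70 were chosen, so that choice itself favours a high count.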

How the results depend on the processing

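All 70 genes called on MeJA kept their sign in the 16 alternatives run, wherever a value could be had, and 16 were called in each of them. The count of 70 became 231 with DESeq2 and ran from 19 to 79 over the fits without 1 MeJA library and was 81 without erf114 MS replicate 1. The count on MS (6) became 19 with DESeq2, 14 without erf114 MS replicate 1 (added after seeing the data) and 3 without any 1 of the MeJA libraries. The count of genes differing between media (5) became 43 with DESeq2, 0 without erf114 MS replicate 1, and 0 to 8 without 1 MeJA library. Seed storage genes called (0) became 3 with only the 6 MeJA libraries, 1 with the replicate block, 5 with that block in these 6, 5 with DESeq2, 1 with no filter and 5 without erf114 MS replicate 1, and stayed 0 without any 1 MeJA library. Low-oxygen core genes called (13) became 7 with only the 6 MeJA libraries and 4 to 14 without 1 of them. Without 1 MeJA library, ethylene signalling gave 1 to 2 calls, the light list 1 to 3 and flavonoids 0 to 2. ERF114 passed at -1.96 with only the 6 MeJA libraries (adjusted p = 0.029), -1.95 in the replicate block fit of these 6 (0.019), -1.95 with DESeq2 (0.00043) and -1.14 with limma on log2(FPKM + 1) (0.002), and ran from -2.07 to -1.78 without 1 library, not called. ERF109, not called, ran from -0.006, reversed, without erf114 MeJA replicate 1 to 0.88 without replicate 2. The causes were not tested. Fits that leave libraries out also hold fewer samples, which cannot be told apart here from which library was left out. Replicate numbers did not pair Col and erf114 on MeJA (correlations of 0.089, 0.421 and -0.251; 0.1 needed in each pair); with the block 87 genes were called, 65 of them among the 70, and with the block and only 6 libraries 98, 52 of them among the 70. The labels' 3 libraries a group limit which differences can pass, and intervals cover counting error only.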

Other observations

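Seed transcripts outside the seed storage list followed the same libraries. All 4 were picked after their values were seen and entered the comparison through the erf114 libraries alone, so they are no separate support. The defensin gene LCR67 stood at 0, 0.34 and 0 FPKM in Col MeJA and 78.11, 31.35 and 109.08 FPKM in erf114 MeJA, and on MS at 0.68, 113.66 and 98.73 FPKM in erf114. The albumin genes SESA2 and SESA5 stood at 10.88, 7.3 and 16.67 FPKM and 10.23, 10.09 and 21.95 FPKM in erf114 MeJA, and at 0, 18.38 and 13.29 FPKM and 0, 21.93 and 32.46 FPKM in erf114 MS. In Col MeJA, SESA2 stood at 0, 0 and 0 FPKM and SESA5 at 0, 0 and 0 FPKM. AT5G66400, the dehydrin RAB18 of drying embryos, stood at 0.44, 0.81 and 0.42 FPKM in Col MeJA and 14.15, 5.84 and 8.05 FPKM in erf114 MeJA. In all 4 genes erf114 MS replicate 1 stood with Col.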
